A study of Homo sapiens with 12 samples.

Results

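DPH1, DPH2, DPH3, DPH5, DPH7 and EEF2 are 6 of the 20915 genes targeted in a pooled CRISPR knockout screen for loss of function that alters the response to lapatinib, an inhibitor of the HER2 and EGFR kinases. Each is represented by 6 sgRNAs, so 36 of the 123411 sgRNA entries in the count table belong to them, taken as the rows whose gene name equals 1 of the 6. DPH7 was selected on measured values, its gain with lapatinib in N87, and the other 5 were added because they act in the same pathway. Its N87 values with lapatinib are therefore given as a description with no test, and so are those of the other members in that comparison. The cells were N87 and OE19, each a single established line of HER2-amplified gastric cancer, transduced with the lentiviral GeCKO V2 library, which carries Cas9 and an sgRNA in 1 vector, at a multiplicity of infection of 0.3. Within each line there were 3 conditions: 14 days in lapatinib, at 0.5 µM for N87 and 1 µM for OE19; 14 days in the vehicle, DMSO; and baseline, the pool after 7 days of puromycin and before treatment. Each condition had 2 replicates from separate infections, and all 12 libraries carry the same knockout pool. The doses differ between the lines, so a difference in the response to lapatinib between them cannot be told apart from the dose. A pool of edited cells reports the abundance of each sgRNA, not expression or the extent of editing, and the identity of the lines was not checked with markers.

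Diphthamide is a modified histidine found only on elongation factor 2, the GTPase encoded by EEF2 that moves the ribosome along the mRNA. It is built in steps. DPH1 and DPH2 form the iron-sulfur enzyme that attaches the first carbon chain from S-adenosylmethionine, with DPH3 as its electron donor and DNAJC24 as a helper. DPH5 then methylates the intermediate repeatedly, DPH7 removes a methyl group from the product, and DPH6 converts the resulting acid, diphthine, to the amide. Diphthamide is best known as the residue that diphtheria toxin and Pseudomonas exotoxin A modify to stop protein synthesis, and cells that lack it tolerate these toxins. EEF2 itself is needed by dividing cells in general.

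On GRCh37, with the GENCODE annotation, all 6 are protein-coding and lie on 5 chromosomes. DPH1 is on chromosome 17 from 1933431 to 1947192 and DPH2 on chromosome 1 from 44435672 to 44439041, both on the plus strand. DPH3 (chromosome 3, 16298568 to 16306476), DPH5 (chromosome 1, 101455179 to 101491644), DPH7 (chromosome 9, 140448896 to 140473377) and EEF2 (chromosome 19, 3976054 to 3985461) are on the minus strand. The count table names sgRNAs by an identifier without a sequence or a position, so which exon each one cuts is not given here.

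Libraries held 13105805 to 33743599 counts, with a median count per sgRNA between 57 (OE19 lapatinib replicate 1) and 238 (N87 baseline replicate 1). All 36 member sgRNAs passed the filter on low counts, an average of 10 per library, in every comparison. In N87 the whole pool spread with lapatinib, and 52.3% of the control guides that target no gene were also called changed against vehicle, with 90% of them between -1.65 and 1.81 on the log2 scale. In OE19 2.21% of control guides were called, and without drug 0 of 2000 were called in either line. Values below are normalized counts (median-of-ratios scaling) for single libraries and log2 fold changes from edgeR, and an sgRNA was called when its Benjamini-Hochberg adjusted p in edgeR's quasi-likelihood test was under 0.05.

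DPH7 sgRNAs were more abundant with lapatinib than with vehicle in N87, all 6 of them and by similar amounts. The summed normalized count of the 6 was 4161 ± 384 with lapatinib, 1415 ± 71.4 with vehicle and 1453 ± 11.6 at baseline (SD, n = 2 libraries each). The median log2 fold change over the 6 sgRNAs was 1.50 ± 0.27 (SD over sgRNAs), and the single sgRNAs lay between 1.22 and 1.91. Every lapatinib library was above every vehicle library for each of the 6, as drawn in the plot of DPH7 counts by condition. For single sgRNAs this was common in N87, where it held for 42.3% of all tested.

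The most abundant of them, HGLibA_13854, had 1702 and 1535 normalized counts with lapatinib, against 578 and 588 with vehicle and 606 and 617 at baseline, a 2.77-fold difference between lapatinib and vehicle. HGLibA_13853 had 802 and 613 with lapatinib, against 210.1 and 199 with vehicle (3.44-fold). HGLibB_13834 had 626 and 586, against 183 and 127, which at 3.89-fold was the largest of the 6. These 3 started at different levels and ended more than 2-fold above vehicle in both libraries. HGLibA_13855, the least abundant at baseline, had 358 and 292 with lapatinib and 124 and 83.4 with vehicle (3.12-fold). HGLibB_13832 had 550.5 and 398 with lapatinib and 214 and 168 with vehicle (2.48-fold). HGLibB_13833 had 395 and 466 with lapatinib and 157 and 199 with vehicle (2.41-fold). In each case the vehicle values stood near those at baseline.

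**Figure D1:**
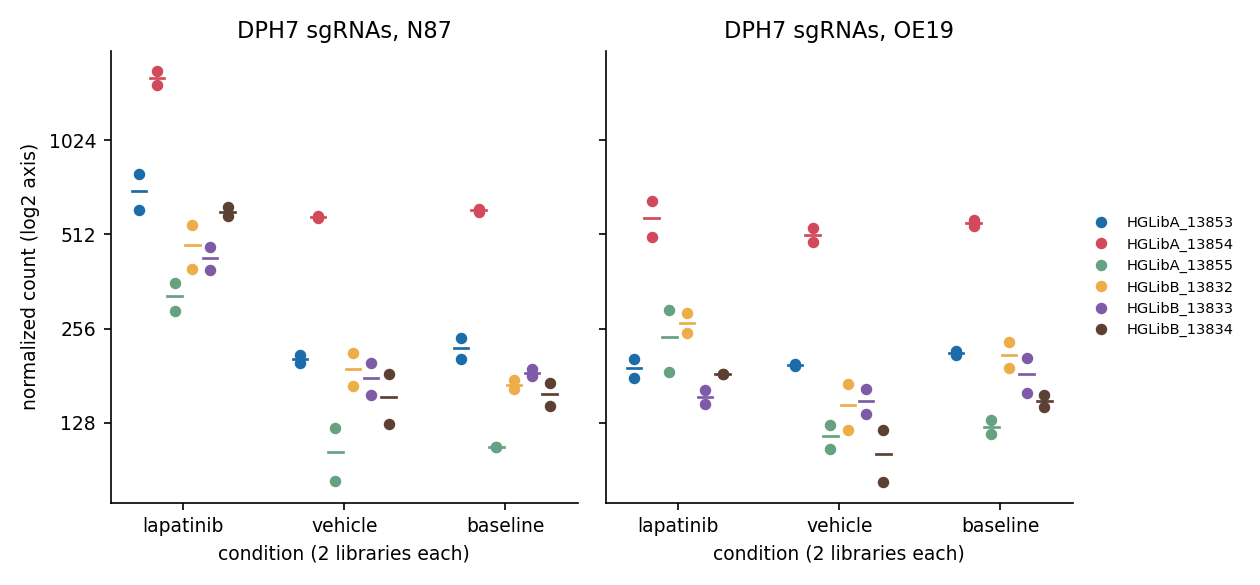
Normalized counts (log2 axis) of the 6 DPH7 sgRNAs in N87 (left panel) and OE19 (right panel), by condition. Points are single libraries and short lines are means of 2 libraries. In N87 both lapatinib points of every sgRNA lie above both vehicle points, where this holds for 42.3% of all tested sgRNAs. In OE19 it holds for 3 of the 6, where it holds for 23.9% of all tested sgRNAs and for 4 of the 6 sgRNAs of DPH1 and of DPH5.

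Among the 17711 genes with 6 tested sgRNAs in this comparison, 121 had a larger median than DPH7, and 26 had a smaller SD over their sgRNAs. Only 2 had a larger lowest sgRNA, and in 29 genes, DPH7 among them, all 6 sgRNAs were called higher. Over genes with 6 sgRNAs the SD had a median of 1.29, so the DPH7 sgRNAs lay closer together than those of most genes. These ranks describe the values by which DPH7 was chosen, cover only the entries under this name and are no test. The size depends on the scaling of the libraries: the DPH7 median was 0.98 after scaling by total counts and 1.22 after TMM scaling on the non-targeting guides, where the median of all sgRNAs was -0.59 and -0.34 in place of -0.07.

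In N87 the change with lapatinib also depended on how abundant an sgRNA was at baseline, a property that was looked at after the data were seen. When the tested sgRNAs were split into 10 bins of equal size by baseline count, the median log2 fold change was -1.26 in the lowest bin and 0.28 in the highest. DPH7 sgRNAs fell in bins 4 to 10. Within its own bin, HGLibB_13834 was above 93.8% of sgRNAs, HGLibA_13853 above 93.1% and HGLibA_13854 above 91.1%. HGLibA_13855 stood above 88.7% of its bin, HGLibB_13833 above 84% and HGLibB_13832 above 83.6%. Single DPH7 sgRNAs were therefore high but not extreme for N87 libraries, and the feature of the 6 entries under this name was that all were high. Entries under WDR85, an older name of the gene taken up below, were less uniform and ran from -0.53 to 2.72.

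**Figure D2:**
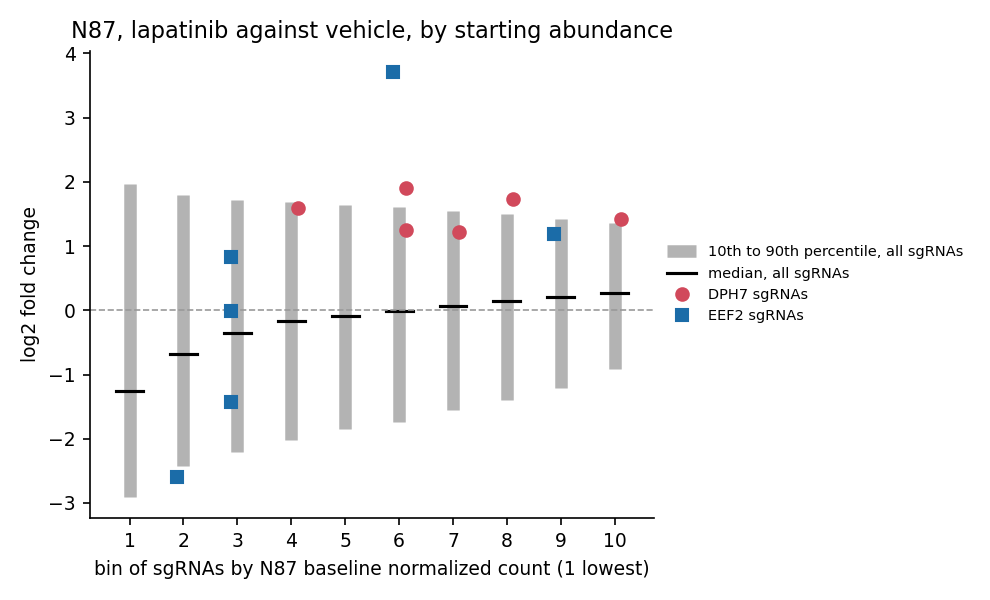
Log2 fold change of lapatinib against vehicle in N87 for the sgRNAs of DPH7 (circles) and EEF2 (squares), by bin of baseline normalized count (bin 1 the lowest). Grey bars run from the 10th to the 90th percentile of all sgRNAs in a bin and black lines are medians, -1.26 in bin 1 and 0.28 in bin 10; all 6 DPH7 circles lie well above the medians.

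The other members did not share the uniform gain of DPH7 in N87. Of the 36 member sgRNAs, 16 were called higher with lapatinib and 5 lower, where 31.2% of all tested sgRNAs were called higher and 29.9% lower. DPH7 supplied 6 of the 16. The remaining 30 sgRNAs thus had 10 called higher and 5 lower. The fold changes of DPH2, DPH3, DPH5 and EEF2 ran in both directions, as the plot of members with lapatinib shows. Those of DPH1 ran from -0.0036 to 1.85. For 20 of the 36, both lapatinib libraries were above both vehicle libraries, which held for 42.3% of all tested sgRNAs. For 7 both were below, which held for 42.4% of all, and for 9 the groups overlapped. The 20 include the 6 sgRNAs of DPH7, whose values chose the gene.

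DPH1 and DPH2, whose products form 1 enzyme, had medians of opposite sign in N87. The DPH1 median was 0.38 ± 0.79 (SD over 6 sgRNAs), with 2 called higher, and the DPH2 median was -0.61 ± 0.61, with 1 called lower. Of all tested sgRNAs 31.2% were called higher and 29.9% lower. For DPH1 the gain was carried by HGLibA_13837, with 1059 and 829 normalized counts in lapatinib against 254 and 249 in vehicle, and by HGLibA_13835, with 402 and 365 against 131 and 139. The other 4 sgRNAs of DPH1 had log2 fold changes of at most 0.50. HGLibA_13840 of DPH2 was the lowest of its gene, with 22.3 and 52.9 in lapatinib against 78.0 and 109 in vehicle. The 2 most abundant sgRNAs of DPH2, HGLibA_13838 and HGLibB_13818, were at 0.06 and 0.24 on the log2 scale.

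DPH3 had a median of 0.51 ± 1.40 in N87, and its sgRNAs spanned -1.95 to 1.82. HGLibB_13821 had 181.8 and 228 normalized counts with lapatinib and 71.8 and 40.05 with vehicle. HGLibB_13820, also against DPH3, had 14.8 and 37.2 with lapatinib and 98.1 and 96.8 with vehicle. These 2 sgRNAs of the same gene lay on opposite sides of vehicle in both replicates.

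DPH5 had a median of 0.16 ± 1.41 in N87, and 1 sgRNA stood apart. HGLibA_13848 had 790.5 and 798 normalized counts with lapatinib, against 81.9 and 111 with vehicle and 93.1 and 87.9 at baseline, an 8.16-fold difference between lapatinib and vehicle. In OE19 the same sgRNA was not higher with lapatinib, at 43.9 and 63.6 against 131 and 69.2 with vehicle. The other 5 sgRNAs of DPH5 lay between -1.01 and 0.95 on the log2 scale in N87.

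EEF2 had the widest spread of the 6 members in N87, a median of 0.41 with an SD over sgRNAs of 2.20. Of the 17711 genes with 6 sgRNAs, 17205 had a smaller SD. HGLibA_15509 had 2781 and 2047 normalized counts with lapatinib, against 192 and 163 with vehicle and 143 and 163 at baseline, which is 13.6-fold over vehicle and above 99.8% of the sgRNAs of its baseline bin. HGLibB_15486 had 1.24 and 18.0 with lapatinib, against 63.3 and 50.9 with vehicle, a fold of 0.183. HGLibA_15508 had 11.1 and 25.2 with lapatinib and 48.7 and 46.7 with vehicle. Within their own baseline bins HGLibB_15486 was above 7.22% of sgRNAs, with its 1.24 near the count floor, and HGLibA_15508 above 27.3%. These 2 were thus less extreme for the pool than HGLibA_15509. The summed count of EEF2 in N87 was large, 2921 ± 555 with lapatinib against 519 ± 115 with vehicle (SD, n = 2). It was mostly HGLibA_15509, which held 82.6% of it with lapatinib and 34.1% with vehicle. The plot of EEF2 counts by condition shows that sgRNA at 119 and 166 in OE19 with lapatinib, against 154 and 186 with vehicle.

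**Figure D3:**
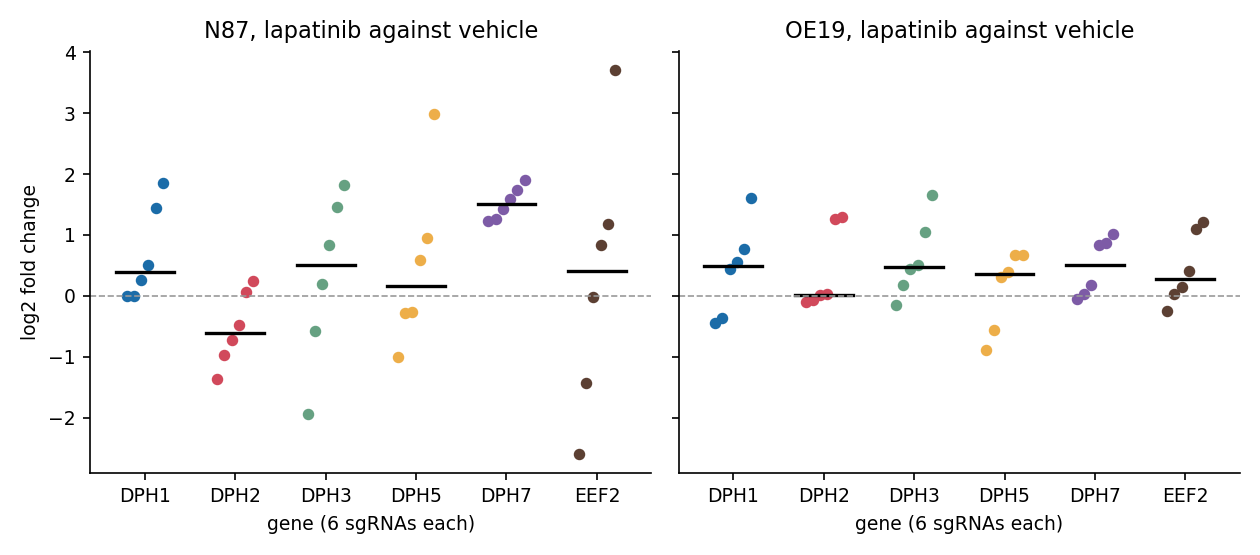
Log2 fold change of lapatinib against vehicle for each sgRNA (points, sorted) of the 6 members in N87 (left panel) and OE19 (right panel), with the gene median as a black line. In N87 the DPH7 points lie together between 1.22 and 1.91 while those of EEF2 run from -2.59 to 3.71; in OE19 the DPH7 median is 0.51.

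In OE19 none of the 6 genes passed the gene test for lapatinib against vehicle, and 1 member sgRNA was called. This line was not used to select DPH7. The gene test ranks all sgRNAs by one-sided edgeR p-value and scores each gene by robust rank aggregation, with Benjamini-Hochberg adjustment over 20890 genes, of which 0.0957% were enriched. The count of member sgRNAs called higher was 1 of 36, where 2.33% of all tested sgRNAs were called, and 0 were called lower, where 0.0795% of all were. At an unadjusted p under 0.05 in edgeR 13 of the 36 were higher, where 9.81% of all were, and 0 lower, where 5.64% were. DESeq2 also called 1 higher and 0 lower after adjustment, and edgeR with the replicate number as a block called 2 higher, where 2.36% of all were. Both lapatinib libraries were above both vehicle libraries for 18 of the 36 and below them for 4, which held for 23.9% and 24.1% of all sgRNAs. Over the 36, the median log2 fold change was 0.40, against -0.02 over all sgRNAs. Of the 36, 27 were above 0, where the median of all sgRNAs was just below it. Relative to baseline the median over the 36 in OE19 was 0.12 with lapatinib and -0.30 with vehicle. Over all sgRNAs these were -0.01 and 0.01. The 36 thus stood further below baseline with vehicle than above it with lapatinib.

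DPH7 had a median of 0.51 ± 0.48 in OE19 (SD over 6 sgRNAs; adjusted p = 0.905 from rank aggregation of edgeR p-values), and 5 of its 6 sgRNAs were above 0. HGLibA_13855 had 295 and 186 normalized counts with lapatinib and 126 and 106 with vehicle (log2 fold change 1.01, adjusted p = 0.116 in edgeR). HGLibB_13832 had 287 and 248 with lapatinib and 121 and 170.2 with vehicle (0.86, adjusted p = 0.147). HGLibB_13834 had 183 and 183 with lapatinib and 82.6 and 121 with vehicle (0.84, adjusted p = 0.215). For these 3 sgRNAs the lapatinib libraries were above the vehicle libraries without overlap, as they were for 23.9% of all sgRNAs and for 4 of the 6 sgRNAs of DPH1 and of DPH5. For the other 3 of DPH7 the groups overlapped, and HGLibA_13853, one of the largest gains in N87, had 204 and 178 with lapatinib and 197 and 194 with vehicle in OE19. With total counts only, where the median of all OE19 sgRNAs was -0.46, the DPH7 median was 0.07.

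The summed count of DPH7 in OE19 was 1618 ± 3.15 with lapatinib, 1220 ± 64.8 with vehicle and 1441 ± 44.8 at baseline (SD, n = 2 each), so lapatinib stood above both others and vehicle below baseline. Relative to baseline, the DPH7 median in OE19 was 0.17 ± 0.42 with lapatinib (adjusted p = 1) and -0.21 ± 0.22 with vehicle (adjusted p = 1). These comparisons share libraries with lapatinib against vehicle and are no further evidence for it. In N87 the median relative to baseline was 1.48 ± 0.24 with lapatinib and -0.05 ± 0.10 with vehicle, given without a test. There, 16 member sgRNAs were called higher in lapatinib than at baseline and 6 lower, of 36, beside 33.7% and 33.6% of all sgRNAs.

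Among the enzymes of the first step in OE19, the DPH1 median with lapatinib was 0.49 ± 0.77 (adjusted p = 0.949), the DPH3 median 0.47 ± 0.65 (adjusted p = 0.905) and the DPH2 median 0.02 ± 0.68 (adjusted p = 1), from rank aggregation of edgeR p-values. The sgRNA that was called is HGLibB_13816 of DPH1. It had 359 and 236 normalized counts with lapatinib, against 88.5 and 102 with vehicle and 163 and 141 at baseline (log2 fold change 1.61, adjusted p = 0.0128 in edgeR). In N87 the same sgRNA overlapped between the groups, with 124 and 246 with lapatinib and 133 and 165 with vehicle. It was not called when an OE19 vehicle library was left out, but then 0 of 121182 sgRNAs in the whole pool were called higher without replicate 1 and 47 of 121716 without replicate 2. With total counts only it was not called either, where 1.4% of all sgRNAs were called higher. HGLibB_13821 of DPH3 had the largest log2 fold change of the 36 in OE19, 1.66, at an adjusted p of 0.130 in edgeR. It had 69.8 and 166 counts with lapatinib against 47.9 and 26.1 with vehicle. Its mean was 118 with lapatinib and 121 at baseline. It was thus near baseline with lapatinib and below it with vehicle.

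DPH5, the methyltransferase, had a median of 0.35 ± 0.66 in OE19 with lapatinib (adjusted p = 1), and EEF2, the substrate, 0.27 ± 0.59 (adjusted p = 1), both by rank aggregation of edgeR p-values. With total counts only these 2 medians were -0.10 and -0.14, and that of DPH2 was -0.45, where the median of all OE19 sgRNAs was -0.46, so all 3 stood at or above that shift. The highest EEF2 sgRNA in OE19 was HGLibB_15485, with 519 and 261 normalized counts with lapatinib, against 168 and 160.0 with vehicle and 318 and 305 at baseline (log2 fold change over vehicle 1.21, adjusted p = 0.0700). Its vehicle libraries, which this comparison shares with the one without drug, were below baseline.

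Without drug, EEF2 had the lowest median of the 6 members in both lines. After 14 days in vehicle its N87 median was -0.61 ± 0.52 relative to baseline (SD over 6 sgRNAs; adjusted p = 0.0130 by rank aggregation of edgeR p-values), and 5 of the 6 sgRNAs were below 0. It was 1 of the 489 genes depleted in N87, 2.34% of those tested, and the only 1 of the 5 members tested. In OE19 the median was lower, -0.83 ± 0.55, but the adjusted p was 0.0535, where 1.53% of genes were depleted. With the replicate number as a block EEF2 was depleted in both lines, at a median of -0.84 in OE19 (adjusted p = 0.0260) and -0.61 in N87 (adjusted p = 0.0227), by rank aggregation of edgeR p-values. In the plot of members without drug 5 of the 6 EEF2 points lie below 0 in both lines, and so do 5 of the 6 points of DPH3. For DPH7 all 6 points lie below 0 in OE19 and 5 of the 6 in N87, the latter given without a test.

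**Figure D4:**
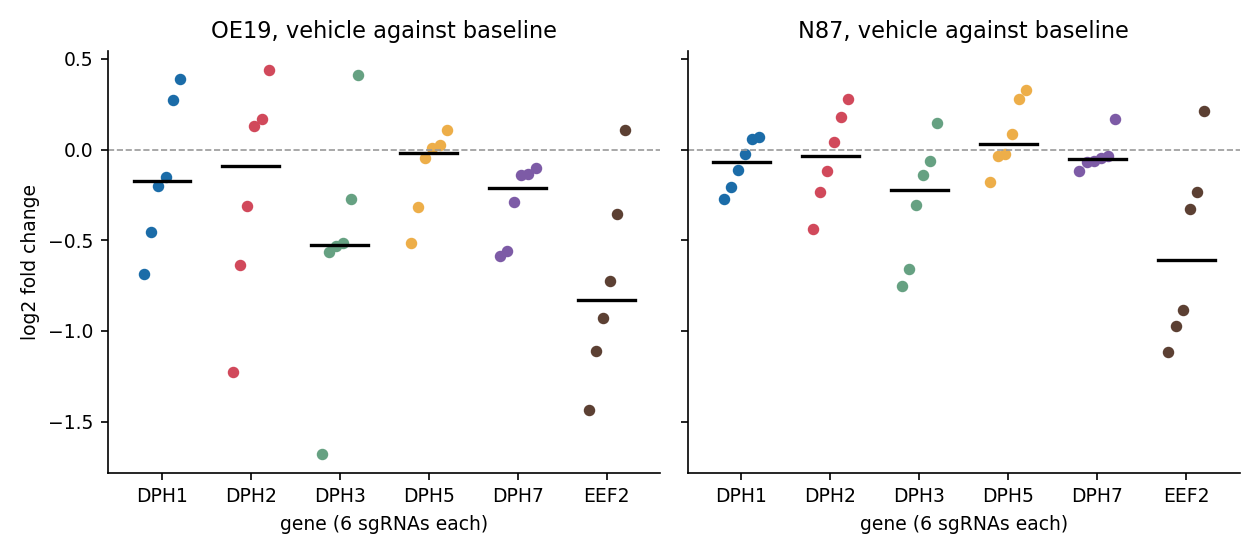
Log2 fold change of vehicle against baseline for each sgRNA (points, sorted) of the 6 members in OE19 (left panel) and N87 (right panel), with the gene median as a black line. The EEF2 medians, -0.83 in OE19 and -0.61 in N87, are the lowest of the 6 genes in each line, and DPH3 is next.

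The EEF2 sgRNAs differed among themselves. HGLibB_15487 had 45.7 and 55.6 normalized counts in OE19 vehicle, against 128 and 143 at baseline (log2 fold change -1.44, adjusted p = 0.0270 in edgeR), and 46.3 and 25.9 in N87 vehicle, against 93.1 and 63.5 at baseline. HGLibB_15485 had 168 and 160.0 in OE19 vehicle, against 318 and 305 at baseline (-0.93, adjusted p = 0.0238), and 171 and 95.1 in N87 vehicle, against 270.1 and 254. HGLibA_15508 had 38.3 and 73.8 in OE19 vehicle, against 101 and 134 at baseline (-1.11, adjusted p = 0.177). In these 3 the vehicle libraries were all below the baseline libraries of their line. The share of all sgRNAs for which this held without drug is not given here, so the separation is a description. HGLibA_15509 was not lower with vehicle in either line, with 154 and 186 in OE19 vehicle against 172 and 141 at baseline, and 192 and 163 in N87 vehicle against 143 and 163. This is the sgRNA that was 13.6-fold higher with lapatinib than with vehicle in N87.

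The EEF2 call in N87 was sensitive to single libraries. Without N87 baseline replicate 1 the median was -0.54 (adjusted p = 0.0952), without vehicle replicate 1 it was -0.77 (0.0981) and without vehicle replicate 2 it was -0.36 (0.104), so the call was kept only without baseline replicate 2 (-0.68, 0.0213), all by rank aggregation of edgeR p-values. In OE19 the call moved the other way: EEF2 was depleted when baseline replicate 1 (adjusted p = 0.0165), baseline replicate 2 (0.0135) or vehicle replicate 2 (0.0189) was left out, and not without vehicle replicate 1 (0.123). With DESeq2 p-values it was depleted in both lines, at an adjusted p of 0.0147 in N87 and 0.0444 in OE19. When the counts of the 6 sgRNAs were summed and tested as 1 value, edgeR gave an adjusted p of 0.0892 in N87 and 0.00179 in OE19.

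**Figure D5:**
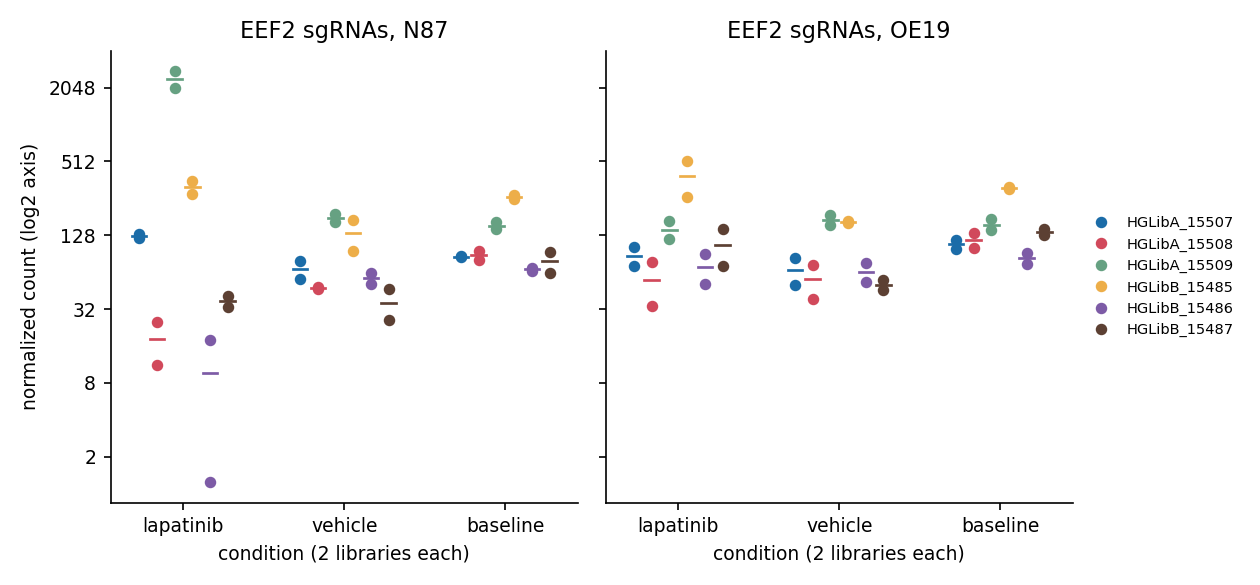
Normalized counts (log2 axis) of the 6 EEF2 sgRNAs in N87 (left panel) and OE19 (right panel), by condition. Points are single libraries and short lines are means of 2 libraries. HGLibA_15509 stands at 2781 and 2047 in the N87 lapatinib libraries, while HGLibB_15486 is at 1.24 and 18.0 there.

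Without drug, 0 of the 36 member sgRNAs were called lower in N87 by edgeR, where 0.0399% of all tested sgRNAs were, and 0 by DESeq2. At an unadjusted p under 0.05 in edgeR 5 were lower, where 5.01% of all were, and 0 higher, where 2.65% were. These 5 were 3 sgRNAs of EEF2 and 2 of DPH3. With the replicate number as a block 4 of the 36 were called lower in N87, where 2.16% of all were. The 36 include the 6 sgRNAs of DPH7, for which the N87 counts are a description and no test. In OE19 3 of the 36 were called lower, where 0.893% of all were, and at an unadjusted p under 0.05 in edgeR 13 were lower and 2 higher, where 7.77% and 5% of all were. The 3 called were HGLibB_15485 and HGLibB_15487 of EEF2 and HGLibB_13821 of DPH3, which had 47.9 and 26.1 normalized counts in vehicle against 111 and 132 at baseline (log2 fold change -1.68, adjusted p = 0.0359 in edgeR). Without OE19 baseline replicate 1, 1 member sgRNA was called lower, where 0.473% of all were, and without baseline replicate 2 there were 0, where 0.216% of all were. Without vehicle replicate 1 there were 6, where 5.02% of all were, and without vehicle replicate 2 there were 16, where 14.2% of all were.

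By gene, DPH3 was next to EEF2 without drug, with a median of -0.52 ± 0.67 in OE19 (adjusted p = 0.167) and -0.22 ± 0.35 in N87 (adjusted p = 0.619), neither past the test by rank aggregation of edgeR p-values. DPH1 was at -0.17 ± 0.41 in OE19 and -0.07 ± 0.14 in N87, and DPH2 at -0.09 ± 0.62 and -0.04 ± 0.27. DPH5 was at -0.02 ± 0.24 in OE19 and 0.03 ± 0.20 in N87. DPH7 was at -0.21 ± 0.22 in OE19, and its value in N87, -0.05 ± 0.10, is given without a test. The values of DPH1, DPH2, DPH5 and of DPH7 in OE19 all had an adjusted p of 1. With the counts of each gene summed, DPH3 (adjusted p = 0.00825 in edgeR) and DPH7 (0.0442) passed in OE19 as EEF2 did. The absence of a call for them thus depends on how sgRNAs are combined. The share of all genes that passed with summed counts is not given here, so the passes cannot be set against it.

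The change without drug did not differ detectably between the lines for the 5 members tested. The interaction of line and condition over 8 libraries, OE19 minus N87, gave 0 of 36 member sgRNAs called lower, where 0.00325% of all sgRNAs and 0.191% of genes were, and DESeq2 also called 0. At an unadjusted p under 0.05 in edgeR 3 of the 36 were lower, where 3.39% of all were, and 1 was higher, where 2.38% were. These counts include the 6 sgRNAs of DPH7, for which they are a description and no test. The EEF2 median of the interaction was -0.18 ± 0.16 and that of DPH3 -0.33 ± 0.53, at adjusted p-values of 1 and 0.866 by rank aggregation of edgeR p-values. The 6 EEF2 sgRNAs ran from -0.40 to 0.04. With lapatinib the EEF2 median in OE19 was -0.23 ± 0.42 relative to baseline (adjusted p = 1), where 0.129% of genes were depleted and 0.000817% of sgRNAs were called higher. No member sgRNA was called higher or lower there by edgeR. At an unadjusted p under 0.05 in edgeR 2 were higher, where 11.5% of all were, and 3 lower, where 8.36% were. DESeq2 called 2 higher, where 5.92% of all were, and edgeR with the replicate number as a block 2, where 4.5% were.

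The table also holds entries under older gene names, which was noticed after the file was opened. WDR85 is the older symbol of DPH7 and ATPBD4 that of DPH6, and each has 6 entries of its own. The WDR85 median in N87 with lapatinib was 1.52 ± 1.07 (SD over 6 sgRNAs), beside 1.50 ± 0.27 for DPH7. Of the 6 WDR85 entries 5 were called higher, where 31.2% of all sgRNAs were. These are not 6 further measurements. The counts of 3 WDR85 entries followed those of a DPH7 entry over the 12 libraries so closely that chi-square divided by its degrees of freedom was 1.04 (HGLibA_62487 and HGLibB_13833), 1.69 (HGLibA_62486 and HGLibA_13855) and 1.90 (HGLibB_55132 and HGLibB_13834), where 1 is counting error. Pairs were taken as those under 2 per degree of freedom, a limit set after the values were seen, and the next was HGLibB_55133 with HGLibB_13834, at 2.76. Without the sequences, whether these pairs are the same sgRNA listed under both names was not tested.

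The other 3 WDR85 entries were above that limit against every DPH7 entry. HGLibB_55134 had 979.8 and 732 normalized counts with lapatinib, against 116 and 134 with vehicle (log2 fold change 2.72). HGLibB_55133 had 1024 and 766 with lapatinib, against 324 and 219 with vehicle (1.66). HGLibA_62488 had 86.6 and 56.5 with lapatinib, against 80.3 and 118 with vehicle (-0.53). Of these 3 entries 2 were called higher in N87 with lapatinib, where 31.2% of all sgRNAs were, and HGLibA_62488 was not. In OE19 the WDR85 median was 0.33 ± 0.45 with lapatinib (adjusted p = 0.905 by rank aggregation of edgeR p-values). For ATPBD4, 4 entries followed DPH6 entries at 0.883 to 1.80 per degree of freedom.

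The enzymes of the pathway outside the 6 members were DNAJC24, which assists the first step, and DPH6, the amide synthetase. In N87 with lapatinib their medians were 0.39 ± 0.71 and 0.59 ± 0.74, with 3 sgRNAs of each called higher, where 31.2% of all sgRNAs were. In OE19 the medians were 0.12 ± 0.31 and 0.36 ± 0.37, with 0 called. There, 2.33% of all sgRNAs were called higher and 0.0795% lower. Over the 7 genes of diphthamide synthesis the median of gene medians with lapatinib was 0.39 in N87, against -0.09 over all genes, and 0.36 in OE19, against -0.02 over all genes. The 7 include DPH7, which was chosen on the N87 values. The N87 level was not particular to this pathway. Genes listed around elongation factor 2 had 0.40 there, cytosolic elongation 0.30, termination and recycling 0.27 and hypusine synthesis -0.13. In OE19 these lists had 0.15, 0.12, -0.10 and 0.23. No gene of diphthamide synthesis was enriched in OE19. Without drug 0 of the 7 were depleted in either line, and DPH6 had the lowest OE19 median of them, -0.67 ± 0.42 (adjusted p = 0.617 by rank aggregation of edgeR p-values).

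Among genes listed around elongation factor 2 or in neighbouring steps of translation, few passed. Of the 5 genes listed around elongation factor 2, which were EEF2 itself, EEF2K, FAM86A, EFTUD1 and HBEGF, EEF2 alone was depleted without drug in N87 and 0 in OE19. Of the 9 genes of cytosolic elongation, EEF1A1, which delivers aminoacyl-tRNA to the ribosome, was depleted in N87 (median -0.49, adjusted p = 0.0170), and 0 in OE19. Of the 6 genes of termination and ribosome recycling, PELO, which rescues stalled ribosomes, was depleted in both lines, at -1.03 (adjusted p = 0.000858) in OE19 and -0.35 (adjusted p = 0.0267) in N87, all by rank aggregation of edgeR p-values. The N87 calls were each lost without some library: that of EEF1A1 without baseline replicate 1 (adjusted p = 0.229) or vehicle replicate 2 (0.498), and that of PELO without baseline replicate 1 (0.0931), baseline replicate 2 (0.0766) or vehicle replicate 1 (0.732). In OE19 PELO was lost without vehicle replicate 2 (0.659). None of the genes of hypusine synthesis, which modify the elongation factor EIF5A, passed in either line. With lapatinib against vehicle in OE19, 0 genes of any of these lists were enriched or depleted.

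Across the 12 libraries the profile of a gene is its median log2 change from the baseline of its line. For DPH7 it was 1.71 and 1.38 in the N87 lapatinib libraries and 0.07 and -0.10 in those with vehicle. The OE19 values of DPH7 were 0.11 and 0.24 with lapatinib and -0.18 and -0.27 with vehicle. For EEF2 the profile was -0.37 and -0.41 in the N87 lapatinib libraries and -0.36 and -0.74 in those with vehicle. In OE19 EEF2 had -0.61 and 0.00 with lapatinib, below its baseline in 1 of the 2 libraries, and -0.98 and -0.64 with vehicle. In order of level, DPH7 in N87 lapatinib stood far above its other conditions, while EEF2 was below baseline in every treated library of N87 and overlapped between lapatinib and vehicle there.

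Of 18995 genes with at least 5 sgRNAs, those with the profile nearest to DPH7 by root mean square difference were KIF22, WDR85, SLC2A5, C16orf74 and HTR7, at 0.0872 to 0.115 on the log2 scale. WDR85 was second of all, and shares the apparent pairs above. Of these 5, HTR7 alone had an N87 SD over sgRNAs under that of WDR85, 0.68 against 1.07, and DPH7 was the tightest at 0.27. No other enzyme of the pathway was near: DPH6 had 1415 genes nearer to DPH7, DPH5 3404, DPH1 4240, DPH3 6021 and DPH2 15935. The nearest to EEF2 were OR4F16, ROMO1, CABIN1, VEZT and URB1, at 0.106 to 0.149, and DPH3 was the nearest member, with 980 genes in between. Profiles share the libraries and their scaling, so the likeness is a description.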

How the data were processed

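The deposited table holds raw sgRNA counts, whole numbers for 12 libraries, which the authors obtained by trimming reads, mapping them to the library with Bowtie (the submitters' notes name Bowtie2 2.3.2) and merging counts. Their MAGeCK scores were not used. The members and gene lists were chosen with earlier results of these data known. In R 4.3.3, edgeR 4.0.16 fitted the 4 libraries of a comparison (8 for the interaction) with TMM factors, for sgRNAs with at least 40 counts (80 for the interaction) and no replicate block. The paper gives 2 infections per line, and the labels number the libraries 1 and 2 without naming an infection. Same-numbered libraries of a line were read as 1 infection, and their deviations from the group means correlated at 0.0340 to 0.238. A fit with that number as a block is given where it changes a call. For genes with 2 or more tested sgRNAs, one-sided p-values were combined by robust rank aggregation over ranks below 0.05. Adjusted p-values are Benjamini-Hochberg values over all sgRNAs or all genes, at a threshold of 0.05. Folds use a pseudocount of 1. Named genes were the members, list genes past the gene test and the 5 nearest profiles of DPH7 and EEF2. The tests were checked on simulated counts with known changes, for OE19 vehicle against baseline only. That simulation used a common dispersion and equal folds over the sgRNAs of a gene. It does not cover the lapatinib comparisons or the interaction. DESeq2 1.42.0, other scalings, no filter, the block, summed counts and leaving out libraries were alternatives. With 2 replicates a group, p-values rest on few libraries.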

Additional observations from a re-analysis of the deposited data

Results flagged for a closer look

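In 4 cases every lapatinib library lay on 1 side of the vehicle libraries in OE19 and on the opposite side in N87, for 3 of the 36 member sgRNAs and 1 of the 6 gene medians. Over the whole pool this held for 20.4% of sgRNAs and 19.9% of genes with at least 5 sgRNAs. The difference between the lines was not tested, because DPH7 was chosen on the N87 comparison, and the doses differ. HGLibA_13848 of DPH5 had a log2 fold change of -0.89 in OE19 and 2.99 in N87, a difference of -3.88. HGLibA_13841 of DPH3 had 1.06 in OE19, with 344 and 722 normalized counts in lapatinib against 251 and 262 in vehicle, and -0.58 in N87, with 197 and 219 against 278 and 320.4, a difference of 1.64. HGLibB_13815 of DPH1 had -0.45 in OE19 and 0.50 in N87, a difference of -0.95. The DPH2 median was flagged on its profile, the median log2 change from baseline in each library. In OE19 this was 0.398 and 0.0513 with lapatinib against -0.233 and 0.0444 with vehicle, a narrow separation. In N87 it was -1.35 and -0.196 against -0.129 and -0.0016. As edgeR log2 fold changes, the DPH2 median was 0.02 in OE19 and -0.61 in N87, a difference of 0.62. In N87 52.3% of control guides were called changed with lapatinib as well.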

How the results depend on the processing

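DPH7 stayed positive in N87 with lapatinib under every alternative tried: its median was 0.98 with total counts only, 1.22 with control guide scaling, 1.10 with counts summed per gene and 1.41 to 1.59 with a library left out. EEF2 without drug lost its N87 call with summed counts (-0.51) and ranged from -0.77 to -0.36 with a library left out; in OE19 it gained a call with DESeq2 (-0.82), the replicate block (-0.84) and summed counts (-0.71), and ranged from -1.001 to -0.66. Member genes past the test without drug were then 0 in N87 with summed counts, and in OE19 1 with DESeq2, 1 with the block and 3 with summed counts. In the main fit 2.34% of all genes were depleted in N87 and 1.53% in OE19. The shares of all genes under these other settings are not given here, so the counts cannot be set against them.

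Counts of member sgRNAs moved with the setting, and so did the share of all sgRNAs called, given in brackets. In N87, lapatinib against vehicle gave 8 lower with total counts only (44.9%); against baseline, 10 higher (20.8%) and 12 lower (49.3%) with total counts only and 3 lower with DESeq2 (27.4%). In OE19, lapatinib against vehicle gave 0 higher with total counts only (1.4%), 2 with control guide scaling (3.37%) and 2 with the replicate block (2.36%); against baseline, 2 higher with DESeq2 (5.92%) and 2 with the block (4.5%). Without drug the replicate block called 4 lower in N87 (2.16%). N87 counts without drug include DPH7, which was not tested there. The block changed the call of no member gene other than EEF2 in OE19. With a library left out the ranges were 15 to 18 higher (24.6% to 33.3%) and 1 to 9 lower (15.5% to 36.2%) in N87 lapatinib against vehicle, and 12 to 18 (25.2% to 38%) and 1 to 12 (16.2% to 41.9%) against baseline. In OE19 they were 0 to 4 higher against vehicle (0% to 8.51%), and 0 to 8 higher (0.00164% to 19.8%) and 0 to 5 lower (0% to 15.9%) against baseline. Without drug they were 0 to 5 lower in N87 (0.0383% to 4.67%), and 0 to 3 higher (0.0122% to 13.1%) and 0 to 16 lower (0.216% to 14.2%) in OE19.

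Medians that changed sign were small and had not passed. With total counts only the median of all OE19 sgRNAs was -0.46 for lapatinib against vehicle and -0.49 against baseline; DPH2 was -0.45, DPH5 -0.10 and EEF2 -0.14 against vehicle and DPH7 -0.30 against baseline, all at or above that shift. With control guide scaling DPH5 in N87 without drug was -0.060. With summed counts DPH2 was -0.0013 in OE19 with lapatinib and 0.11 without drug, and in the interaction DPH1 was 0.020 and DPH2 0.15. With a library left out, EEF2 ranged from -0.11 to 0.68 in OE19 with lapatinib over vehicle and from -0.63 to 0.016 over baseline. In N87 without drug DPH1 ranged from -0.25 to 0.012 and DPH5 from -0.030 to 0.15, and in OE19 DPH1 from -0.48 to 0.074 and DPH2 from -0.25 to 0.032. In the interaction DPH1 ranged from -0.35 to 0.14 and EEF2 from -0.35 to 0.045. Pearson's r in place of distance shared 2 of the 5 genes nearest to DPH7 and 3 of 5 for EEF2. Causes were not tested.

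Each group had 2 libraries, and a median count of 57 in the shallowest, OE19 lapatinib replicate 1, limits the precision of single sgRNAs there. p-values cover the spread of separate infections of 1 line. Where a library was left out, the lone one was assumed to vary like its comparator. Editing was not measured.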
